A study of Homo sapiens with 3 samples.

Results

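The regions described here were ribosome peaks in 5′ untranslated regions (5′ UTRs) that lay in exon 2 or a later exon of their transcript. A peak is a stretch of the genome where ribosome-protected mRNA fragments piled up. Members were the peaks whose deposited annotation named a 5′ UTR and an exon number of at least 2, and no measured value entered the choice. There were 252 such peaks among 46819 in all, 62 of 11219 in the vector list, 107 of 19920 in the wild-type list and 83 of 15680 in the G325E list. They fell on 106 RefSeq transcripts of 104 genes. Exon 2 held 233 of them, exon 3 held 17 and exon 4 held 2.

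HEK293T cells, derived from human embryonic kidney, were profiled 24 h after transfection. Per the labels all 3 cultures received harringtonine, which stalls initiating ribosomes at start codons, for 90 s at 2 µg/ml and then cycloheximide at 100 µg/ml, whereas the study's methods name cycloheximide alone. The vector cells received the empty plasmid, the wild-type cells FLAG-tagged wild-type DDX3X, and the G325E cells FLAG-tagged DDX3X carrying the G325E substitution found in medulloblastoma, a childhood brain tumour. DDX3X is a DEAD-box RNA helicase. Each construct was represented by 1 library (no replicates), so no difference between constructs could be set against the spread between cultures, no test was made between them, and the intervals below (95%, Wilson for shares) cover counting error over peaks only. Transfection added DDX3X to whatever the line makes itself. The lists hold positions and annotations without heights or reads, so the depth of reads behind a peak is unknown. The libraries themselves were of unequal depth: the study lists the most non-duplicated mapped reads for wild-type, fewer for vector and the fewest for G325E. The authors' peak numbers run with gaps in vector (14.8% of numbers missing) and wild-type (13.5%) and with 0 missing in G325E.

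In a spliced mRNA the 5′ UTR is the stretch that the small ribosomal subunit scans before it meets the start codon. Where an intron interrupts it, the later part of the leader, and often the start codon, lies in a later exon. Ribosomes protect leader sequence when they initiate at the start codon, because the footprint reaches upstream of it, and when they translate upstream open reading frames (uORFs). DEAD-box helicases such as DDX3X are known for aiding scanning through structured leaders.

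Many of these peaks lay at start codons, and examples are shown of genes whose member peaks sat within 15 nt of the codon in all 3 lists. Each line gives the transcript strand of GRCh37 up to and including the annotated start codon, which is in capitals, cut at the exon's first base where this comes earlier. The examples were chosen after the values were seen, not every such gene is shown, and the choice itself fixes that the positions are close.

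AURKAIP1, minus strand of chr1:1310134-1310163: gggacctgtggccgccgcccacagaccATG
KXD1, plus strand of chr19:18672846-18672869: gcagcggaggaggagaaagagATG
RPL41, plus strand of chr12:56510559-56510574: aaacctctgcgccATG
RPS9, plus strand of chr19:54705028-54705055: gcgcagacggggaagcggagccaacATG
TMUB1, minus strand of chr7:150779648-150779677: ggtagcgcggcgggcaaggcaggcgccATG
TRABD, plus strand of chr22:50631463-50631492: acaggtgcaggaagccgccgcccagccATG

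In all 6 the start codon lay in exon 2 of the matched transcript, and each gene had 1 such peak in every list. RPS9, a protein of the small ribosomal subunit, had peaks 52, 55 and 51 bp long in vector, wild-type and G325E, with midpoints 5, 4 and 6 nt upstream of its ATG. The 3 RPL41 peaks, on a leader of the large subunit, were 26, 25 and 24 bp long with midpoints 2, 1 and 1 nt upstream. AURKAIP1 encodes a protein that binds Aurora kinase A, and its peaks were 49, 51 and 29 bp long and lay 6, 7 and 15 nt upstream. The G325E peak was thus the shorter one in AURKAIP1, whereas the lengths in RPS9 and RPL41 differed by at most 4 bp. SERPINF1, the gene of a secreted serpin, had the same arrangement, but its start codon lies too close to the exon's first base for a line above.

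The genes with most members among those present in every list included HMGA1, GNG5, UBE2D3, MAN1A1, EIF4G3, ZNF664, GRB2, AURKAIP1 and RNPS1. The lines below show 30 nt of the leader at a member locus that overlapped peaks of all 3 lists, on the transcript strand of GRCh37. Any ATG is in capitals.

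HMGA1, exon 3, chr6:34208514-34208543, plus: catcccagccatcactcttccacctgctcc
GNG5, exon 2, chr1:84971793-84971822, minus: ggcccacgacccaccgacccacgaatcggc
UBE2D3, exon 2, chr4:103747669-103747698, minus: agagagtgaggagccagacgacaagcacac
MAN1A1, exon 2, chr6:119670232-119670261, minus: cgcggcgccggaccactggacagcgggagc
ZNF664, exon 2, chr12:124458464-124458493, plus: tcccgctcaggtgATGaggaacccctcgcg
GRB2, exon 2, chr17:73389792-73389821, minus: cggagcgagtcccagaagagaggcgaggct

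The GC content of these 6 windows ran from 56.7% in UBE2D3 to 80% in MAN1A1, and only the ZNF664 window holds an ATG. That ATG opens a frame of 20 codons, 847 nt upstream of the annotated start codon. The AURKAIP1 window overlaps the line given for it above, and those of EIF4G3 and RNPS1, which did not overlap peaks of all 3 lists, are not printed.

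The share of later-exon 5′ UTR peaks among all 5′ UTR, coding and 3′ UTR peaks was compared between constructs. This share counts called peaks and does not measure ribosome occupancy. It was 0.991% in vector (62 of 6254, interval 0.774 to 1.27), 0.921% in wild-type (107 of 11620, 0.763 to 1.11) and 1.17% in G325E (83 of 7089, 0.946 to 1.45). The difference of G325E from wild-type was 0.250 percentage points with an interval from -0.0451 to 0.570 (Newcombe), and that from vector was 0.179 points (-0.178 to 0.532). Wild-type differed from vector by -0.0705 points (-0.390 to 0.218). All 3 intervals include 0, so a difference was not detectable at these peak numbers. A single gene, ARF6, gave 9 of the 83 G325E members, and without it the G325E value was 1.05% and the difference from wild-type 0.125 points.

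First-exon 5′ UTR peaks made up 8.07% of the same peaks in vector (505 of 6254, 7.43 to 8.78), 7.93% in wild-type (921 of 11620, 7.45 to 8.43) and 18.0% in G325E (1276 of 7089, 17.1 to 18.9). The G325E share was 10.1 points above wild-type (9.06 to 11.1) and 9.92 points above vector (8.80 to 11.0). Read against all 5′ UTR peaks, the later-exon share was therefore lower in G325E, at 6.11% (83 of 1359, 4.95 to 7.51), than in vector, at 10.9% (62 of 567, 8.62 to 13.8), or wild-type, at 10.4% (107 of 1028, 8.69 to 12.4). That difference was -4.30 points from wild-type (-6.62 to -2.08) and -4.83 points from vector (-7.89 to -2.13). With the 3 lists set to equal GC content it was -1.30 and -1.99 points, and over genes that had peaks in all 3 lists it was -0.816 and -1.80 points.

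**Figure D1:**
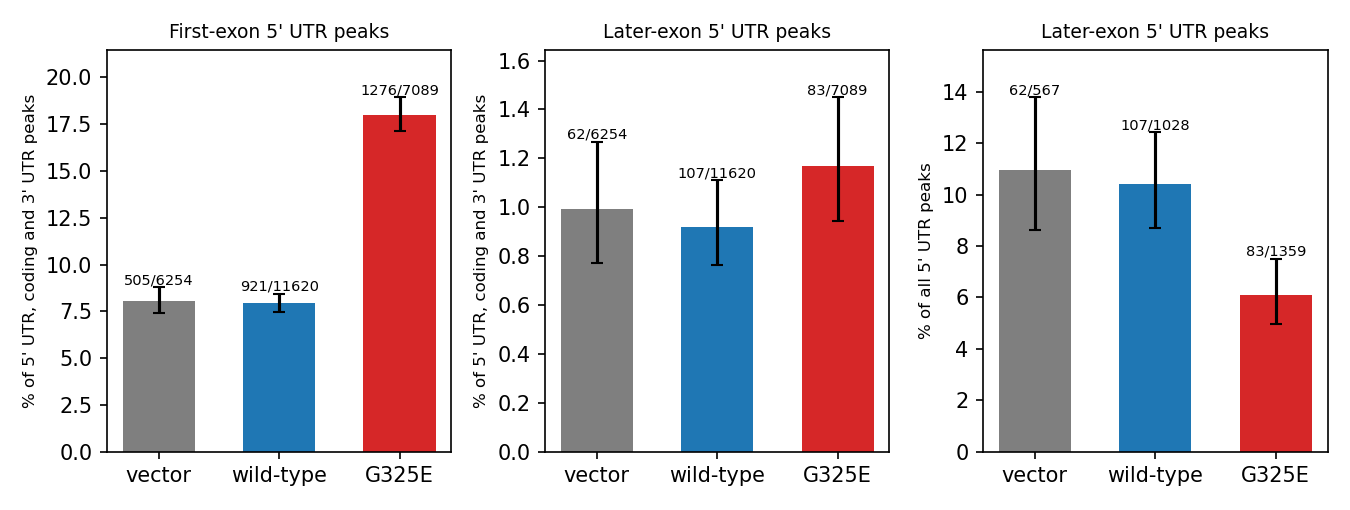
Bars give the percentage of peaks in each library, with 95% Wilson intervals as error bars (counting error over peaks only) and the numbers of peaks above; the left and middle panels share a denominator but differ in axis range. The G325E bar stands above the others for first-exon peaks (18.0%), overlaps them for later-exon peaks (1.17%), and is lowest when later-exon peaks are taken over all 5′ UTR peaks (6.11%).

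GC content, measured in the 31 nt around each peak's midpoint, moved with the library. Members averaged 61.7% ± 13.5 GC in the vector list (SD, 62 peaks), 59.0% ± 14.4 in that of wild-type (107 peaks) and 68.4% ± 12.7 in that of G325E (83 peaks), and without ARF6 the G325E mean was 67.8%. First-exon peaks were richer, at 71.0% ± 11.8, 70.7% ± 11.1 and 77.3% ± 10.9. The G325E mean was thus the highest in both groups of peaks. Within 6 classes of GC content, the later-exon share of the 3 regions ran from 0.791% to 1.43% in vector, from 0.815% to 2.27% in wild-type and from 0.658% to 1.36% in G325E. In the class from 75 to 85% GC it was 1.02% in vector (6 of 586 peaks), 0.815% in wild-type (8 of 982) and 1.33% in G325E (21 of 1578). In the class from 45 to 55% it was 0.791% (14 of 1769), 0.886% (30 of 3387) and 1.36% (13 of 953). The order was another in the class from 65 to 75%, at 1.43% (19 of 1326), 0.878% (21 of 2393) and 1.11% (22 of 1983), and above 85%, at 1.03% (1 of 97), 2.27% (4 of 176) and 0.658% (5 of 760). The part of base composition in the differences between libraries was not tested.

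The members were then merged into 164 loci, and each was looked up in all 3 lists, counting a peak of any annotation. All 3 lists had a peak at 36 loci (22.0%), vector and wild-type at 25, vector and G325E at 5, and wild-type and G325E at 11. Wild-type alone had one at 42 loci, G325E alone at 40 and vector alone at 5. The loci of G325E alone include 0 bp entries of CCSAP and RNPS1, placed by their deposited starts. Their deposited ends fall within peaks of other lists. Read by their ends, these would not be loci of G325E alone. No share over loci of all peaks is given here, so these counts describe the members only. The 25 loci of vector and wild-type had a mean GC content of 53.1% ± 11.2 (SD over loci), whereas the 40 loci of G325E alone had 70.0% ± 11.0 and the 36 common loci 65.4% ± 12.7. The 40 loci of G325E alone came from 20 genes. The whole lists also differed in GC content. Of all 5′ UTR, coding and 3′ UTR peaks, 1578 of 7089 in G325E had 75 to 85% GC, beside 586 of 6254 in vector and 982 of 11620 in wild-type. The difference between locus groups is therefore not particular to later-exon leaders.

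**Figure D2:**
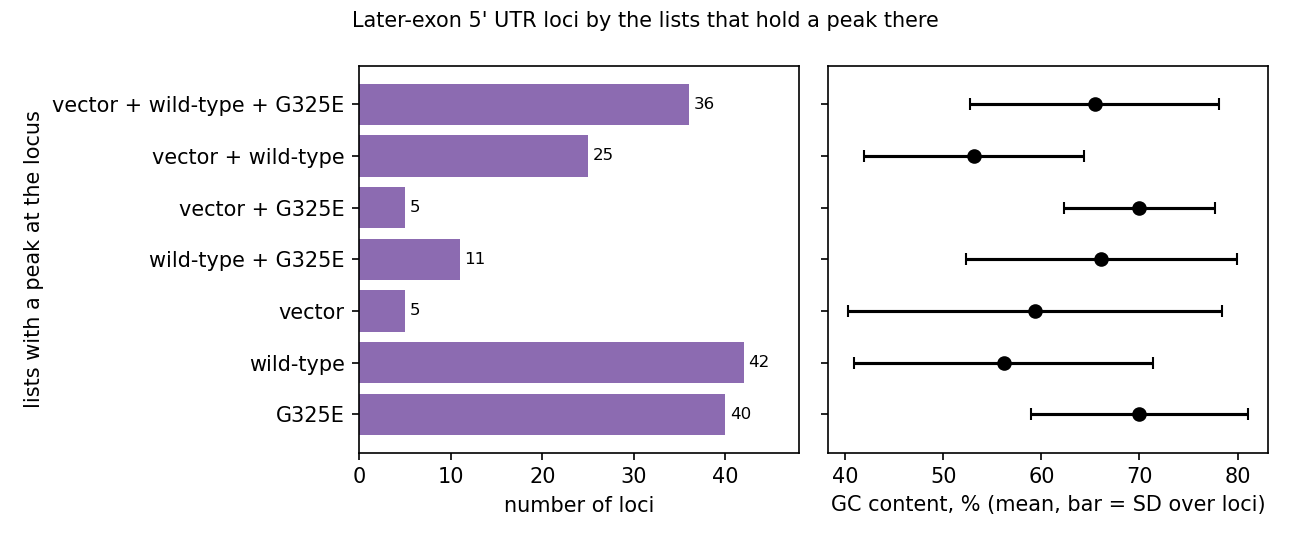
The left panel counts merged later-exon 5′ UTR loci by the lists that hold a peak there, and the right panel gives their mean GC content with SD over loci (percent, axis not starting at 0). The 25 loci of vector and wild-type average 53.1% GC and the 40 of G325E alone 70.0%. GC content also differed between the whole lists.

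Overlap of at least 1 bp between lists was set beside that of all peaks, and each interval of the members held the share of all peaks. Of the vector members, 83.9% overlapped a wild-type peak, against 76.8% of all vector peaks, and 54.8% overlapped a G325E peak, against 48.1%. Of the wild-type members, 50.5% overlapped a vector peak (41.6% of all wild-type peaks) and 37.4% a G325E peak (34.9%). Of the G325E members, 39.8% overlapped a vector peak (35.4% of all G325E peaks) and 49.4% a wild-type peak (47.3%). Of the first-exon peaks of wild-type, 59.9% met a G325E peak (552 of 921, 56.7 to 63.1), above the later-exon interval (40 of 107, 28.8 to 46.8). The vector first-exon share was 72.5% (366 of 505, 68.4 to 76.2), again above the later-exon interval (34 of 62, 42.5 to 66.6). In the other direction, 28.1% of first-exon peaks of G325E met a vector peak (358 of 1276, 25.7 to 30.6), below the later-exon interval (33 of 83, 29.9 to 50.5). The other 3 first-exon shares lay within the later-exon intervals.

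By gene, 49 genes had a member in the vector list, 79 in that of wild-type and 50 in that of G325E, and 23 had one in every list. A further 16 genes had members in vector and wild-type, 8 in wild-type and G325E, and 4 in vector and G325E. Members were in G325E alone for 15 genes, in wild-type alone for 32 and in vector alone for 6. For genes without a member in a list, most often the gene had no peak of any kind there: 37 of 55 such genes in vector and 38 of 54 in G325E, but 9 of 25 in wild-type. No share over all genes with peaks is given beside these counts, so they describe the member genes only. Among the 31 genes with members in both G325E and wild-type, 4 had more in G325E, 23 had the same number and 4 had fewer, for 44 members in each list. The number of peaks per gene was scaled to equal totals of 5′ UTR, coding and 3′ UTR peaks. This scaled number was at least 2-fold higher in G325E than in wild-type in 19 of 56 member genes, beside 26.5% of all genes. In 6 of 56 it was at least 2-fold lower, beside 8.96%. Against vector, 5 of 47 member genes were higher, beside 9.69% of all genes, and 7 of 47 lower, beside 17%.

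**Figure D3:**
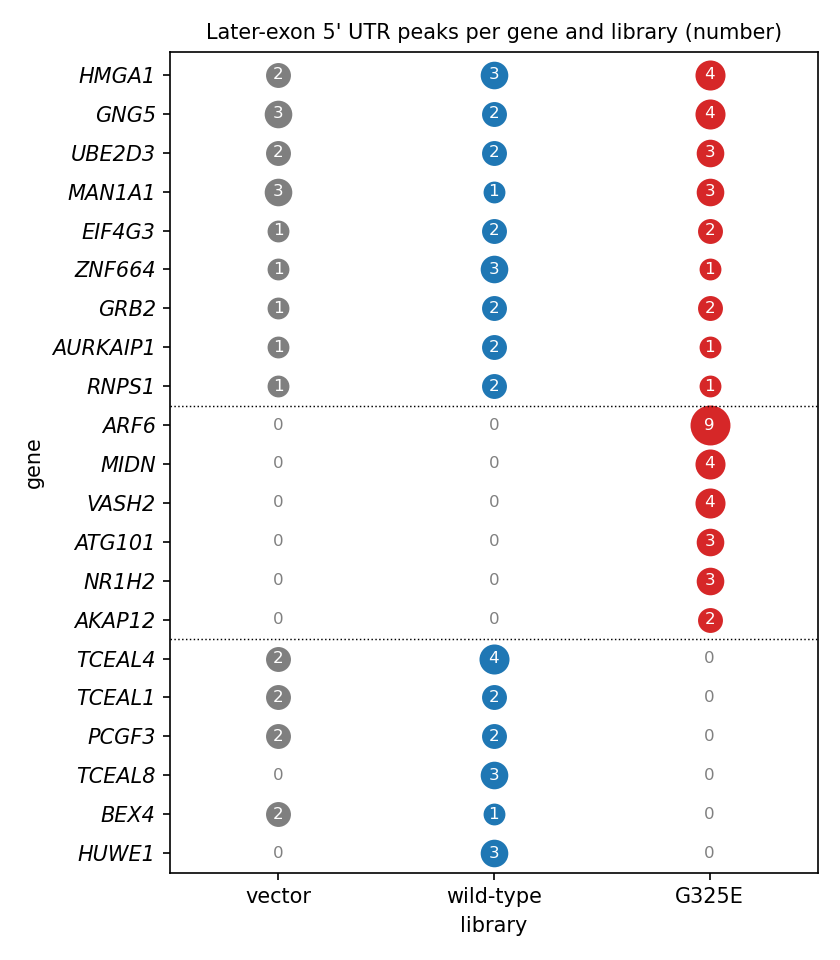
Each circle gives the number of later-exon 5′ UTR peaks of a gene (rows) in a library (columns), with its area growing with the number. Dotted lines separate the genes with members in every list, those with members in G325E alone and those with members in vector or wild-type and none in G325E; ARF6 stands out with 9 in G325E.

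Among the genes present in every list, HMGA1, an architectural protein of chromatin, had 2, 3 and 4 members in vector, wild-type and G325E. A long peak in its exon 2 (chr6:34204991-34205094 in vector and G325E) was 104 bp in both and 105 bp in wild-type, 97 nt upstream of the start codon. GNG5 encodes a G protein gamma subunit and had 3, 2 and 4 members. Of these 9 peaks, 8 lay in a uORF of 97 codons that begins 157 nt upstream of the annotated start codon, so that it runs past that codon. The remaining GNG5 peak, in vector, was on the opposite strand. PCGF3, a Polycomb-group protein, had 2, 2 and 0 members in vector, wild-type and G325E, all 4 within uORFs. Its exon 3 holds uORFs of 29 and 11 codons, which start 147 and 50 nt upstream. The first bases of these frames, with their ATG in capitals, are shown because vector and wild-type members cover them.

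GNG5, minus strand of chr1:84971914-84971943: ggcaaggcgcgcATGcgcaccgagggtgga
PCGF3, plus strand of chr4:724759-724779: aaaATGgaaaaagagccaggg
PCGF3, plus strand of chr4:724847-724876: cctgaagcctccATGccccggcagagggac

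UBE2D3, an E2 enzyme that passes ubiquitin to substrates, had 2, 2 and 3 members in vector, wild-type and G325E. Its peak nearest the start codon was 58, 62 and 50 bp long and lay 17, 19 and 19 nt upstream, and its second was 39, 40 and 41 bp long and lay 83, 82 and 83 nt upstream. MAN1A1, a Golgi mannosidase that trims N-glycans, had 3, 1 and 3 members. The peak nearest its start codon was 52, 57 and 51 bp long. Farther up, positions with midpoints 76 nt upstream in both libraries and then 122 nt in vector and 121 nt in G325E, held members in vector and G325E and none in wild-type. GRB2, the adaptor that links receptor tyrosine kinases to Ras, had 1, 2 and 2 members, with a common peak of 57, 60 and 58 bp at 98, 96 and 97 nt upstream. The peak nearest the start codon of each of these 3 genes was thus in every list, as was the second UBE2D3 peak. The remaining UBE2D3 member, in G325E, was 4 bp long and on the opposite strand. The remaining GRB2 members were 1 bp long in wild-type and 4 bp long in G325E.

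EIF4G3, a scaffold of translation initiation, had 1, 2 and 2 members and 0 coding peaks in any list. The EIF4G3 members lay 279 nt upstream in vector, 276 and 298 nt in wild-type, and 341 and 428 nt in G325E, with lengths of 101 and 70 bp in G325E and at most 33 bp elsewhere. The vector and wild-type lists both skip a peak number where the peak at 428 nt lies. ZNF664, a zinc finger protein, had 1, 3 and 1 members, between 758 and 876 nt upstream, and 3 of the 5 lay in uORFs. RNPS1, a splicing and exon junction protein, had 1, 2 and 1, and AURKAIP1 1, 2 and 1. The only RNPS1 member in G325E had a deposited length of 0 bp, so its presence in every list rests on that entry. Of the AURKAIP1 members in wild-type, 1 also had a length of 0 bp.

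The genes with most members in G325E and none in the other lists were ARF6, MIDN, VASH2, ATG101, NR1H2 and AKAP12. ARF6, a small GTPase of membrane traffic and the actin cortex, had 9 members there, in its second and last exon, from 43 to 454 nt upstream of the start codon with a mean GC content of 73.1%, and 2 of them were on the opposite strand. Its other G325E peaks were 2 coding and 2 promoter-TSS peaks, the class that marks positions near a transcription start site. MIDN, which delivers nuclear proteins to the proteasome, had 4 members and 6 coding peaks in G325E. VASH2, a vasohibin, had 4 members and 3 coding peaks. ATG101, of the complex that starts autophagy, had 3 members and 0 coding peaks, and NR1H2, a nuclear receptor for oxysterols, had 3 members and 0 coding peaks. For these 5 genes the vector and wild-type lists had 0 peaks of any class. AKAP12, an anchor of protein kinase A, differed: it had 33 coding peaks in wild-type and 19 in G325E, and 2 members in G325E, 34 and 108 nt upstream. None of the 25 loci of these 6 genes fell where the vector or wild-type list skips a peak number, but of all 40 loci of G325E alone 6 fell at such a gap in the vector list and 6 at one in the wild-type list. The part of read depth was not tested.

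The genes with most members in vector and wild-type and none in G325E were TCEAL4, TCEAL1, PCGF3, TCEAL8, BEX4 and HUWE1. The TCEAL and BEX genes, small relatives of a transcription elongation factor that lie close together on chromosome X, accounted for 4 of these 6. TCEAL4 had 2 members in vector and 4 in wild-type, TCEAL1 had 2 and 2, TCEAL8 had 0 and 3, and BEX4 had 2 and 1. With TCEAL9 these genes had 7, 11 and 0 members in vector, wild-type and G325E, and 16, 20 and 0 coding peaks. The G325E list held none of their peaks in any class. The family had 6 genes with peaks in the 3 regions, and these counts cover only the 5 with members. The members in these genes had a mean GC content of 49.6%. HUWE1, a large ubiquitin ligase also on chromosome X, had 3 members and 2 coding peaks in wild-type and 0 peaks of any class in the others. On chromosome X lay 12.9% of the members in vector (8 of 62), 16.8% in wild-type (18 of 107) and 1.2% in G325E (1 of 83), beside 3.47%, 3.84% and 2.76% of all peaks.

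Lists of gene groups, drawn up with earlier results of these data known, were described by their counts beside all genes with peaks, of which 104 of 2666 had a member (3.90%). Cytosolic ribosomal protein genes had members in 5 of 68 (7.35%). RPS9, RPL38, RPL35A and RPL41 had 1 in each list, and RPL39L had 1 in wild-type, on the strand opposite to the gene. RPL38 peaks lay 21, 18 and 18 nt upstream of the start codon in vector, wild-type and G325E, and RPL35A peaks 18, 24 and 23 nt upstream. Several ribosomal protein genes have processed copies elsewhere in the genome, so their peaks are less certain. Translation factor genes had members in 3 of 41 (EIF4G3, EEF1A1 and EEF1A2), and those of EEF1A1 and EEF1A2, close paralogs, were 1 in vector and 1 in wild-type, respectively. The list of hnRNP and splicing factor genes, which does not include RNPS1, had 0, 4 and 0 members in vector, wild-type and G325E, 1 each in HNRNPF, HNRNPK, RBM4 and SNRPD3 (4 of 75 genes). The HNRNPF peak was 43 bp long. The others were short: 0 bp in HNRNPK, 4 bp in SNRPD3, and 5 bp on the opposite strand in RBM4. Histone and chromatin protein genes had members in 2 of 20, HMGA1 and HMGN5, the latter with 2 in wild-type alone. ATP5MC3, a subunit of ATP synthase, was the 1 of 41 oxidative phosphorylation genes and had 1 in vector and 1 in wild-type. MCM5, of the replicative helicase, was the 1 of 16 replication genes and had 1 in G325E. None of 8 uORF-controlled stress genes, 22 proteasome genes, 39 chaperone genes, 28 actin, tubulin and actin-binding genes or 2 aminoacyl-tRNA synthetase genes with peaks had a member.

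Every member gene had a GENCODE canonical transcript, and 100 of 104 of these (96.2%) had 5′ UTR sequence in a later exon, as against 698 of 2654 genes with peaks in the 3 regions (26.3%). The rule itself requires a leader split by an intron, so this is a property of the choice. Together the later-exon leaders of the member genes measured 13822 nt.

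Position along the spliced canonical transcript was measured from the midpoint of each peak to the start codon. Midpoints within 15 nt of the codon made up 37.1% of members in vector (23 of 62, 26.2 to 49.5), 29.0% in wild-type (31 of 107, 21.2 to 38.2) and 19.3% in G325E (16 of 83, 12.2 to 29.0). The same share of first-exon 5′ UTR peaks was 11.4%, 9.96% and 7.21%. The G325E value was the lowest of the 3, and its interval overlapped those of both other libraries. The median distance upstream was 24 nt for the 59 vector peaks (95% interval of the median 14 to 35), 31 nt for the 99 wild-type peaks (20 to 50) and 77.5 nt for the 80 G325E peaks (34 to 97). Without ARF6 the G325E median was 48 nt over 71 peaks (30 to 93). At loci with a peak in all 3 lists the medians were 18, 17.5 and 18.5 nt in the same order, within 1 nt of each other. Overlapping peaks share a position, so the choice of these loci itself brings the medians close. First-exon peaks had medians of 92, 104 and 99 nt. Of the 252 members, 11 lay outside the 5′ UTR and coding exons of the canonical transcript, and 2 lay in its coding sequence (both of FBRS). Among the 11 were the 0 bp entries of AURKAIP1, CCSAP and RNPS1. Their deposited ends lay on the exon's first base and their starts 1 base outside it. Placement used the start, so these entries count as outside only through that base.

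**Figure D4:**
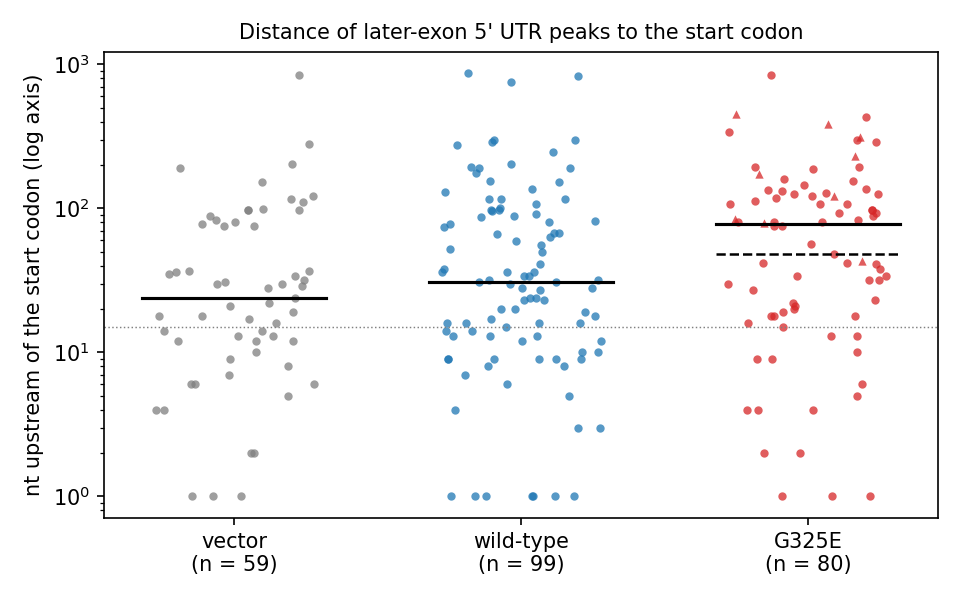
Each point is a later-exon 5′ UTR peak, plotted by the distance in nt from its midpoint to the start codon of the canonical transcript (log axis) and spread sideways for legibility; triangles mark ARF6. Solid lines are medians (24, 31 and 77.5 nt), the dashed line is the G325E median without ARF6 (48 nt), and the dotted line is at 15 nt.

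Peaks also reached into the start codon. Of members placed upstream of or at the codon, the interval covered its first base in 45% in vector (27 of 60, 33.1 to 57.5), 34.3% in wild-type (34 of 99, 25.7 to 44.1) and 25% in G325E (20 of 80, 16.8 to 35.5), and in 16.8% of first-exon peaks over the 3 lists (370 of 2200). An ATG on the transcript strand was present in the 31 nt around the midpoint in 38.7% of vector, 32.7% of wild-type and 25.3% of G325E members, against 15.1%, 16.5% and 13.5% of first-exon peaks. Midpoints lay within a uORF in 9 of 59 members in vector (15.3%), 14 of 99 in wild-type (14.1%) and 13 of 80 in G325E (16.3%). Of the later-exon leader bases of the member genes, 30.5% lie in a uORF. That value counts bases, so genes with long leaders weigh most in it. Examples are SKIDA1 (2117 nt, 1 member) and ZC3H11A (1587 nt, 2 members). It therefore cannot show whether peaks avoid or favour uORFs. The intervals of the 3 libraries overlapped in the share of members within a uORF (8.24 to 26.5, 8.61 to 22.3 and 9.75 to 25.8).

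Exon edges marked these peaks. Of the 244 members whose exon could be matched to a GENCODE transcript, 118 (48.4%) began at the first base of their exon, within 1 nt: 32 of 61 in vector (52.5%, 40.2 to 64.5), 55 of 102 in wild-type (53.9%, 44.3 to 63.3) and 31 of 81 in G325E (38.3%, 28.4 to 49.2). Members at an exon edge had a median length of 16 bp, and the others 47 bp. On the matched transcript their median distances upstream of the start codon were 22.5 and 77.5 nt. By library these were 17 and 34 nt in vector, 24 and 41 nt in wild-type, and 23 and 93 nt in G325E. The part of exon-edge peaks in the distances by library was not tested. In 37 of the 118 the same list also had a peak ending at the last base of the exon before. Of all 252 members, 106 were shorter than 25 bp, and 5 of these had a deposited length of 0 bp. The longest was 145 bp, and medians were 40.5 bp in vector, 28 bp in wild-type and 30 bp in G325E.

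Strand followed the gene for nearly all members. Peaks on the opposite strand were 1 of 62 in vector (1.61%), 4 of 107 in wild-type (3.74%) and 5 of 83 in G325E (6.02%), against 12.3%, 14.8% and 16.1% of first-exon 5′ UTR peaks. Over the 3 lists this was 3.97% of later-exon peaks (2.17 to 7.15) and 15% of first-exon peaks (13.7 to 16.4).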

How the data were processed

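The authors deposited 1 list of ribosome peaks per sample, whose columns used here are positions in bp, strand, annotated region and nearest gene, with no height or score. Per the labels and the study's methods, reads were trimmed with cutadapt and aligned with BWA 0.5.5 to hg19, peaks were called in each sample from base coverage, and HOMER (version not given in the sources used here) annotated them. In vector, wild-type and G325E, 28, 43 and 44 peaks in later-exon leaders of canonical transcripts were annotated to other classes and were not members. Of these, 15, 23 and 21 were promoter-TSS peaks, a class to which HOMER gives precedence over the 5′ UTR. The labels name harringtonine (2 µg/ml, 90 s) before cycloheximide (100 µg/ml), and the methods cycloheximide only. Which applies could not be settled.

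Genes came from the RefSeq transcript in the annotation (matched for 249 of 252 members). The file's own gene name was used for the 3 others and in place of the matched name for 3 whose symbol was a readthrough gene or not in GENCODE. Starts of peaks at an exon's first base lay 1 base inside the exon in 67 of 70 members on the plus strand, while those on the minus strand met the edge in 47 of 48. Deposited starts therefore read 1 base high, and lengths may be 1 base short. Positions were used as deposited, and an entry of 0 bp was taken as 1 base at its deposited start. Sequence and GC content were read from GRCh37, and distances from GENCODE release 44 lifted to it. A uORF was an ATG in the leader with an in-frame stop. Scripts ran in Python 3.11.15 with scipy 1.17.1, pysam 0.24.0 and matplotlib 3.10.9, and placement and overlap were tested on simulated intervals.

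The members and gene lists were chosen with earlier results of these data known. Named genes were the 10 with most members among those in every list, the 6 with most in G325E alone, the 6 with most in vector and wild-type and none in G325E, and listed genes with at least 2 members. Genes outside this rule were named after their values were seen. A gene and a sequence that the rules chose are not reported here. The smallest share 3 peaks allow was 0.0480%, 0.0258% and 0.0423% of the peaks in the 3 regions of the vector, wild-type and G325E lists.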

Additional observations from a re-analysis of the deposited data

How the results depend on the processing

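Of 168 alternative values, 136 stayed within the counting interval or spread of the value reported and 32 moved beyond it. Over all peaks the share was 0.553%, 0.537% and 0.529% in vector, wild-type and G325E, and the G325E differences, whose intervals include 0, changed sign to -0.00781 points from wild-type and -0.0233 from vector. With peaks of at least 25 bp it was 0.721% in wild-type and 0.918% in G325E, the later-exon share of 5′ UTR peaks was 8.48% and 4.67%, and 32, 48 and 31 genes had members in vector, wild-type and G325E. Without ARF6, GNG5 and HMGA1, chosen after seeing the data, the G325E values were 0.935% and 4.93%. On canonical transcripts the share of 5′ UTR peaks was 8.21%, 7.32% and 4.36%. Equal GC content gave 7.54% in G325E, with differences of -1.30 points from wild-type and -1.99 from vector. Genes with peaks in all 3 lists gave 8.03% in wild-type, with differences of -0.816 and -1.80. Overlap by 50% of both peaks gave 67.7% (vector with wild-type), 38.3% (wild-type with vector) and 37.3% (G325E with wild-type). By the peak's 5′ end, 11.3%, 8.41% and 7.23% were at the start codon and 75.8%, 81.3% and 85.5% upstream. At loci common to the 3 lists, chosen after seeing the data, the median distance was 17.5 nt in wild-type and 18.5 nt in G325E. The causes were not tested.

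No paired analysis was possible because each construct had 1 library, and for the same reason no library could be left out within a group. With 62 to 107 members, the intervals of the share of the 3 regions were wider than the differences between constructs, and the read depth behind the peaks is unknown.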
